A study of Mus musculus with 12 samples.

Results

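Genes whose symbol starts with Kcn encode potassium (K+) channels and the subunits that assemble with them, and their mRNA was followed in mouse hearts after ischaemia–reperfusion (IR). Of 98 such genes in the count tables, which hold 38293 genes, the 42 with 10 or more raw counts in at least 3 of the 12 libraries were taken. By current, 18 were voltage-gated, 8 inward rectifiers, 4 two-pore channels, 5 calcium-activated and 7 auxiliary subunits. Kcnt2, whose channel is opened by sodium, was placed with its Slo-type relative Kcnma1 among the calcium-activated genes. The other 56 genes did not reach the threshold, and 12 of these had no count in any library. Kcnk1 and Kcnn4, which are known from the heart, were among the 56. Closest to the threshold on the inside, Kcnj4, Kcnc1 and Kcnq5 reached 10 counts in exactly 3 libraries, with 53, 91 and 98 counts over all 12. Closest on the outside, Kcnt1, Kcnd1 and Kcnk5 reached it in 2 libraries, with 51, 84 and 85 counts.

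RNA-seq was available for 4 groups of 3 mice, all labelled C57B/6J: wild-type mice after sham surgery (WT sham), wild-type mice 14 days after IR (WT IR), and, in a second table, injured wild-type controls (Zeb2 WT IR) and injured mice with the Zeb2 transgene (Zeb2 cTg IR), also at 14 days, where it is not stated whether the controls carried Cre. IR was a temporary ligation of the left anterior descending artery, and no group of uninjured Zeb2 cTg mice was analysed here. In Zeb2 cTg mice, Cre recombinase under the Myh6 promoter switches on Zeb2 from the Rosa26 locus in cardiomyocytes. According to the methods, mice were 8 to 9 weeks old. On sex the methods differ: the general passage names male and female mice, that on the transgenic lines males only. Each speaks of all animal experiments. The labels name left ventricle as the tissue, the methods the remote zone, and the design text the infarct area with its border zone. Total counts lay between 20215781 and 36816818 per library, and between 60.6% and 73.5% of them came from the mitochondrial genome. Levels are given in CPM, counts per 1000000 after TMM scaling, and 1 CPM stood for between 17.2 and 37.8 counts. The 13 cardiomyocyte markers summed to between 49063 and 73378 CPM in every library, whereas the 4 atrial markers summed to between 0.491 and 1.16 CPM in WT sham and WT IR, between 0.403 and 0.486 CPM in Zeb2 WT IR and between 0.916 and 3.29 CPM in libraries labelled Zeb2 cTg IR. Zeb2 itself was not higher in libraries labelled Zeb2 cTg IR (55.5, 56.9 and 58.7 CPM) than in Zeb2 WT IR (54.7, 57.8 and 67.0 CPM), a difference of -0.07 on the log2 scale (SE, the standard error, 0.12, adjusted p = 0.750 by the edgeR quasi-likelihood test). All directions drawn from these libraries therefore rest on their labels.

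K+ channels end the cardiac action potential and set the resting potential. In the ventricle of the adult mouse, fast transient and delayed rectifier currents through voltage-gated channels repolarize the cell early, inward rectifiers hold the resting potential, and the currents named IKr and IKs, which dominate repolarization in larger mammals, play a smaller part. ATP-sensitive channels open when the energy supply falls, and calcium-activated channels link the membrane potential to intracellular calcium. Pore-forming subunits work with auxiliary ones that set their gating and their number at the surface, and loss of repolarizing K+ current is a known feature of injured and failing hearts.

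The levels of the 42 genes spanned several orders of magnitude. Per length (CPM per kb of exon, the scale on which genes can be compared with each other), the two-pore channel gene Kcnk3, which encodes an acid-sensitive background channel, was the highest in WT sham with a mean level of 22.1, followed by Kcnip2 with 17.3, whose product is the main auxiliary subunit of the fast transient outward current. Kcng2, a silent voltage-gated subunit that modifies other channels, followed with 11.0, then Kcnj2, the main subunit of the inward rectifier current IK1, with 8.27. The muscarinic K+ channel genes Kcnj3 and Kcnj5 had 7.56 and 6.18. These 6 genes held 62.4% of the summed level per length of all 42 in WT sham, 58.3% in WT IR, 66.5% in Zeb2 WT IR and 65.6% in libraries labelled Zeb2 cTg IR. Inward rectifiers held between 31.5% and 37% of the sum in the 4 groups, voltage-gated channels between 24.3% and 29.4%, auxiliary subunits between 16.7% and 20.1%, two-pore channels between 15.2% and 19.8%, and calcium-activated channels between 2.03% and 4.20%. In 28 of the 42 genes every library had at least 10 counts. Exons of 16 of the 42 overlap a gene on the opposite strand, and since the strand setting of the counting is not stated, reads of such partners cannot be told apart.

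**Figure D1:**
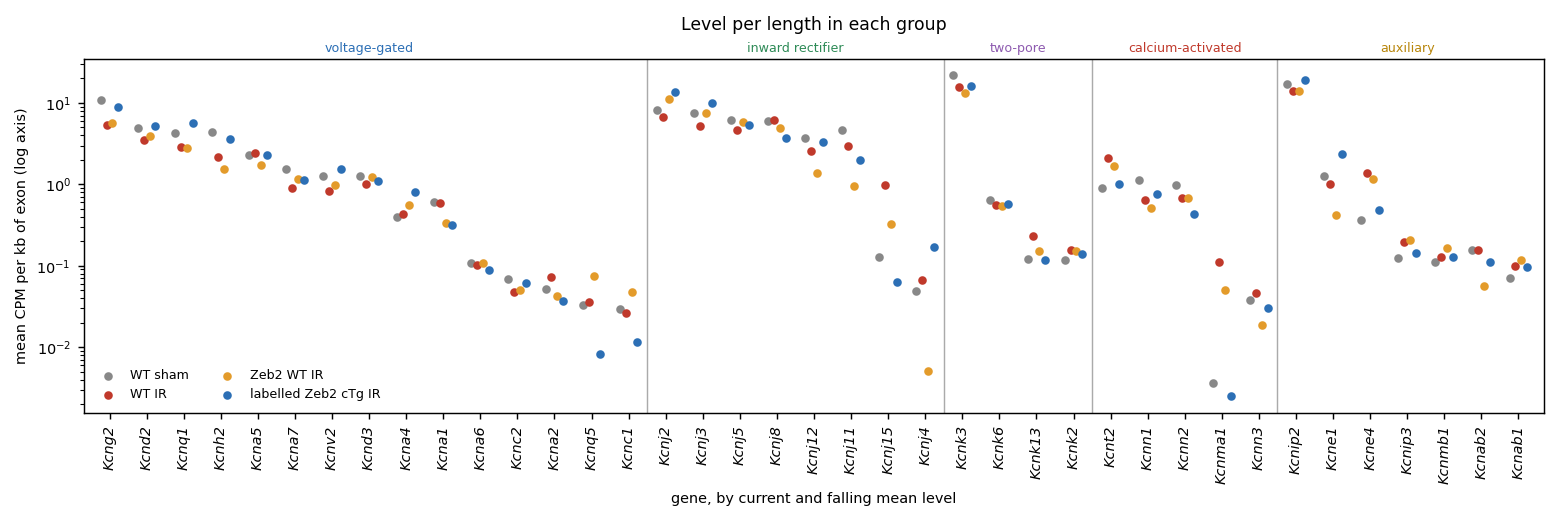
Mean level of each of 39 of the 42 K+ channel genes, in CPM per kb of exon on a log axis, in the 4 groups (3 mice each, 1 point per group), ordered by current and by falling mean level. Kcnk3 and Kcnip2 lie highest, and Kcnma1 in WT sham and in libraries labelled Zeb2 cTg IR lies lowest.

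To ask how injury altered these genes, WT IR was compared with WT sham. In WT IR, 9 K+ channel genes fell and 4 rose. Those that fell encode channels of several cardiac currents: among the 8 named here Kcng2, Kcnh2, Kcnq1 and Kcna7 of the voltage-gated genes, Kcnj11 and Kcnj5 of the inward rectifiers, Kcnk3 of the two-pore channels and Kcnn1 of the calcium-activated ones, by 0.43 to 1.03 on the log2 scale. Those that rose were Kcnma1, Kcnj15, Kcne4 and Kcnt2, by between 1.2 and 5.04. Of the 42 genes, 39 had enough counts to be tested with edgeR's quasi-likelihood test at an adjusted p under 0.05, so 23.1% of those tested were lower and 10.3% higher. Over all 13756 genes tested, 9.74% were lower and 11.0% higher. The median log2 fold change of the 39 genes was -0.30, beside 0.01 over all genes tested, and 25 of the 39 were below 0. Sham and injured CPM did not overlap in 19 of the 39 genes (48.7%), beside 39.8% of all genes tested, and for a single gene an exact permutation test of 3 mice against 3 cannot go below a two-sided p of 0.1. In 32 of the 39 genes every library of the table reached the minimum count of the filter, whereas Kcnma1, Kcnk13, Kcnip3 and Kcnmb1 reached it in WT IR alone.

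These counts depended on single libraries. Without WT IR replicate 1, the library of WT IR closest to sham in most of the genes that fell, 17 genes were lower and 4 higher. Without WT sham replicate 2 or WT IR replicate 2, 1 was lower and 4 higher, without WT sham replicate 1 these were 4 and 4, and without WT sham replicate 3 the median moved to -0.06. The scaling mattered as well. Size factors from cardiomyocyte markers, whose sum ranged from 63301 to 69652 CPM in sham hearts and from 49063 to 62912 CPM after IR, moved the median of all genes to 0.29 and that of the K+ channel genes to -0.02, so that the latter lay 0.31 below the former, beside 0.30 with TMM. Relative to these markers 4 genes were lower and 4 higher. Ttn held the largest part of the marker sum, with 37338 to 41432 CPM in sham hearts and 30172 to 37981 CPM after IR.

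**Figure D2:**
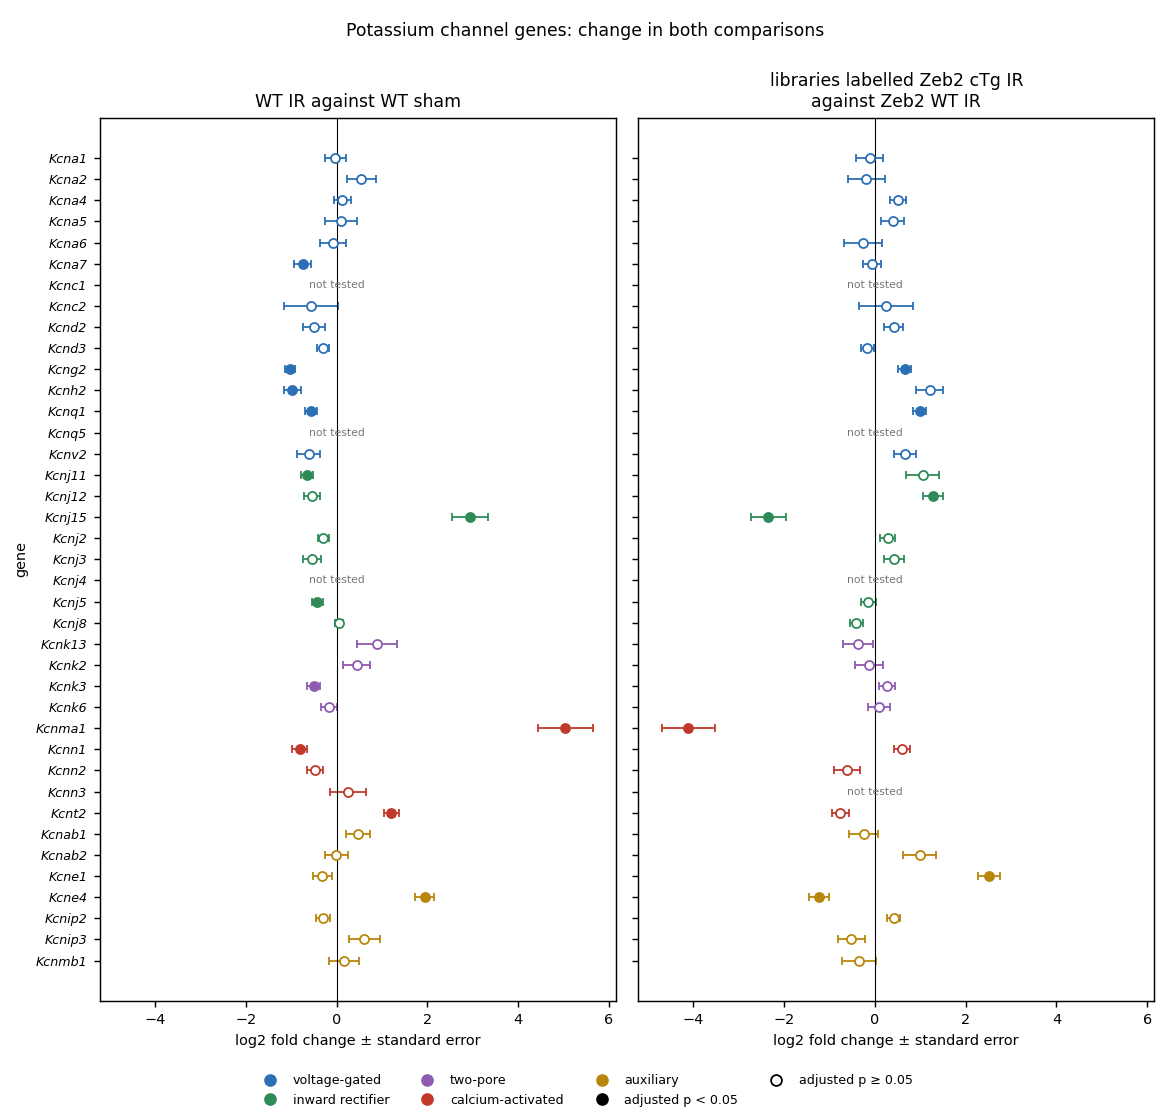
Log2 fold change with its SE for each of 39 of the 42 genes in WT IR against WT sham (left) and in libraries labelled Zeb2 cTg IR against Zeb2 WT IR (right), coloured by current. Filled points passed an adjusted p under 0.05: 12 of 36 tested genes plotted on the left and 7 of 35 on the right.

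Among the voltage-gated genes, 5 of the 16 tested fell and none rose, with a median of -0.48. Kcng2 (ENSMUSG00000059852, chromosome 18, 80294546 to 80364254, minus strand, with all positions on GRCm38) had 34.7, 33.2 and 30.8 CPM in the WT sham libraries and 19.1, 14.9 and 14.4 CPM in WT IR. All WT IR libraries were lower than all sham libraries, a log2 fold change of -1.03 (SE 0.11, adjusted p = 0.00208 by the edgeR quasi-likelihood test), and it passed in all 6 leave-one-out fits. Kcnh2 (ENSMUSG00000038319, chromosome 5, 24319589 to 24351604, minus strand), the pore subunit of IKr, had 19.4, 22.0 and 21.6 CPM in WT sham and 14.7, 9.42 and 7.83 CPM in WT IR. The drop of Kcnh2 was -0.98 on the log2 scale (SE 0.19, adjusted p = 0.0101 by edgeR), and replicate 1 kept the highest level of the WT IR libraries. Kcnq1 (ENSMUSG00000009545, chromosome 7, 143106362 to 143427042, plus strand), the pore subunit of IKs, had 17.4, 19.6 and 15.8 CPM in WT sham and 13.5, 12.7 and 9.58 CPM in WT IR, a log2 fold change of -0.56 (SE 0.13, adjusted p = 0.0184 by edgeR). Kcna7 (ENSMUSG00000038201, chromosome 7, 45405653 to 45409763, plus strand) had 3.14, 3.28 and 3.61 CPM in WT sham and 2.47, 1.96 and 1.49 CPM in WT IR, a log2 fold change of -0.74 (adjusted p = 0.0237 by edgeR). In the leave-one-out fits, Kcnh2 passed in 4 of 6, Kcnq1 in 3 and Kcna7 in 2. Of these, Kcna7 no longer passed after a correction for GC content (adjusted p = 0.0706), and Kcna7 and Kcnq1 did not pass relative to cardiomyocyte markers (adjusted p = 0.0872 and 0.105). Beside these genes, the conduction markers Hcn4, the main pacemaker channel gene, and Cntn2 both fell, Hcn4 from 2.57, 3.00 and 1.98 CPM in WT sham to 1.34, 1.06 and 0.970 CPM in WT IR, and Cntn2 from 3.67, 3.96 and 3.90 CPM to 1.81, 1.14 and 1.34 CPM. Their part was not tested.

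The genes of the fast transient outward current did not pass. Kcnd2, its main pore subunit in mouse ventricle, had 19.1, 23.3 and 34.6 CPM in WT sham and 23.9, 17.2 and 13.1 CPM in WT IR (log2 fold change -0.49, adjusted p = 0.172 by edgeR), and the groups overlapped. Kcnd3, a second pore subunit, had a log2 fold change of -0.30 (adjusted p = 0.122) with groups that did not overlap, and Kcnip2 one of -0.30 (adjusted p = 0.191). Kcna4, the pore subunit of the slow transient current, had 1.94 ± 0.356 CPM (SD, n = 3) in WT sham and 2.12 ± 0.289 CPM in WT IR. For Kcna5, which carries a delayed rectifier current, the values were 8.32, 5.12 and 6.17 CPM in WT sham and 11.7, 4.60 and 4.59 CPM in WT IR. Its replicate 1 in WT IR was the highest of the 6 libraries, and without it the log2 fold change of Kcna5 went from 0.09 to -0.51. Kcna1, Kcna2, Kcna6, Kcnc2 and Kcnv2, also voltage-gated, had log2 fold changes between -0.62 and 0.55 and did not pass.

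Of the 7 inward rectifier genes tested, 2 fell, 1 rose and 4 did not pass. Kcnj11 (ENSMUSG00000096146, chromosome 7, 46093953 to 46100764, minus strand), the pore subunit of the ATP-sensitive channel of cardiomyocytes, had 16.1, 17.3 and 18.2 CPM in WT sham and 13.0, 10.7 and 8.84 CPM in WT IR. Every WT IR library lay below every sham library, with a log2 fold change of -0.65 (SE 0.13, adjusted p = 0.0108 by edgeR). Kcnj8, the pore subunit of the ATP-sensitive channel of vascular smooth muscle, had 14.5, 16.1 and 15.4 CPM in WT sham and 17.3, 15.8 and 14.6 CPM in WT IR, and these overlapped. Kcnj5 (ENSMUSG00000032034, chromosome 9, 32314707 to 32344350, minus strand), a subunit of the channel that acetylcholine opens, had 27.4, 30.9 and 28.6 CPM in WT sham and 25.5, 21 and 18.2 CPM in WT IR, a log2 fold change of -0.43 (adjusted p = 0.0317 by edgeR), which passed in 1 of the 6 leave-one-out fits and not relative to cardiomyocyte markers (adjusted p = 0.273). Its partner Kcnj3 had -0.54 (adjusted p = 0.0820). The IK1 genes Kcnj2 and Kcnj12 had log2 fold changes of -0.30 and -0.54 (adjusted p = 0.115 and 0.0615) and did not pass. After the correction for GC content Kcnj2 and Kcnj3 passed, at -0.47 and -0.68 (adjusted p = 0.0290 and 0.0459).

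Among the two-pore genes, Kcnk3 (ENSMUSG00000049265, chromosome 5, 30588170 to 30625271, plus strand), the highest of the 42 per length in both groups, fell. It had 94.6, 90.9 and 78.5 CPM in WT sham and 76.6, 57.7 and 51.5 CPM in WT IR, without overlap (log2 fold change -0.51, SE 0.14, adjusted p = 0.0327 by edgeR). It passed in 1 of the 6 leave-one-out fits, and neither once GC content was corrected for (adjusted p = 0.0899) nor relative to cardiomyocyte markers (adjusted p = 0.106). Kcnk2, a stretch-sensitive channel gene, Kcnk6 and Kcnk13 had log2 fold changes of 0.44, -0.17 and 0.89 and did not pass. The genes of small-conductance calcium-activated channels differed in what could be shown. Kcnn1 (ENSMUSG00000002908, chromosome 8, 70842049 to 70863258, minus strand) had 5.33, 5.0 and 5.06 CPM in WT sham and 3.75, 2.54 and 2.46 CPM in WT IR, so that all injured hearts were lower (log2 fold change -0.81, SE 0.17, adjusted p = 0.0126 by edgeR). Kcnn2 had -0.48 (adjusted p = 0.0784) with groups that did not overlap, and Kcnn3, at between 6 and 19 counts per library, 0.25. Among the auxiliary genes Kcne1, Kcnab1, Kcnab2, Kcnip3 and Kcnmb1 the log2 fold changes lay between -0.32 and 0.61 and none passed.

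Of the 4 genes that rose, Kcnma1 (ENSMUSG00000063142, chromosome 14, 23289431 to 24014491, minus strand), the pore subunit of the large-conductance calcium-activated channel, best known from smooth muscle and neurons, had 1, 1 and 2 raw counts in the WT sham libraries and 32, 76 and 71 in WT IR. In CPM these were 0.0378, 0.0307 and 0.116 against 1.00, 2.01 and 2.65, and no libraries overlapped. The pooled counts, 4 against 179, gave a ratio of 35.3 per scaled count, with an exact 95% interval from 13.6 to 131 that covers counting error only, and the fitted log2 fold change was 5.04 (SE 0.60, adjusted p = 0.00256 by edgeR). Its auxiliary subunit in smooth muscle, Kcnmb1, had 0.467 ± 0.198 CPM (SD, n = 3) in WT sham and 0.536 ± 0.0173 CPM in WT IR, and did not pass (adjusted p = 0.766).

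Kcnj15 (ENSMUSG00000062609, chromosome 16, 95257558 to 95300260, plus strand), an inward rectifier gene best known from kidney and other epithelia, had 0.984, 0.583 and 0.873 CPM in WT sham and 4.16, 4.55 and 9.81 CPM in WT IR, where replicate 3 was more than double the other injured libraries. Its log2 fold change was 2.93 (SE 0.39, adjusted p = 0.00380 by edgeR). Kcne4 (ENSMUSG00000047330, chromosome 1, 78816758 to 78820028, plus strand), whose product inhibits several voltage-gated channels including that of Kcnq1, had 1.02, 0.797 and 1.11 CPM in WT sham and 3.00, 3.62 and 4.40 CPM in WT IR, a log2 fold change of 1.94 (SE 0.21, adjusted p = 0.00208 by edgeR). For Kcnt2 (ENSMUSG00000052726, chromosome 1, 140246158 to 140612067, plus strand) the values were 6.20, 6.44 and 6.23 CPM in WT sham and 10.8, 14.7 and 18.1 CPM in WT IR, with a log2 fold change of 1.20 (SE 0.17, adjusted p = 0.00405 by edgeR). These 4 genes passed under each of the 15 alternatives run, the 6 leave-one-out fits included. All 4 were lowest in replicate 1 among the injured libraries and highest in replicate 3, and so was the summed level of 7 fibroblast markers, with 1611, 2631 and 4052 CPM in WT IR against 774, 441 and 519.7 CPM in WT sham. Of these markers 6 rose and none fell, and the 6 macrophage markers all rose as well, from between 87.6 and 99.2 CPM to between 119 and 213 CPM. The 7 smooth muscle and pericyte markers summed to 442 to 455 CPM in sham hearts and 458 to 532 CPM in injured ones, with 2 higher and 1 lower. The part of these cells in the rise was not tested. In bulk tissue, fewer cells of a type and less RNA per cell cannot be told apart.

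**Figure D3:**
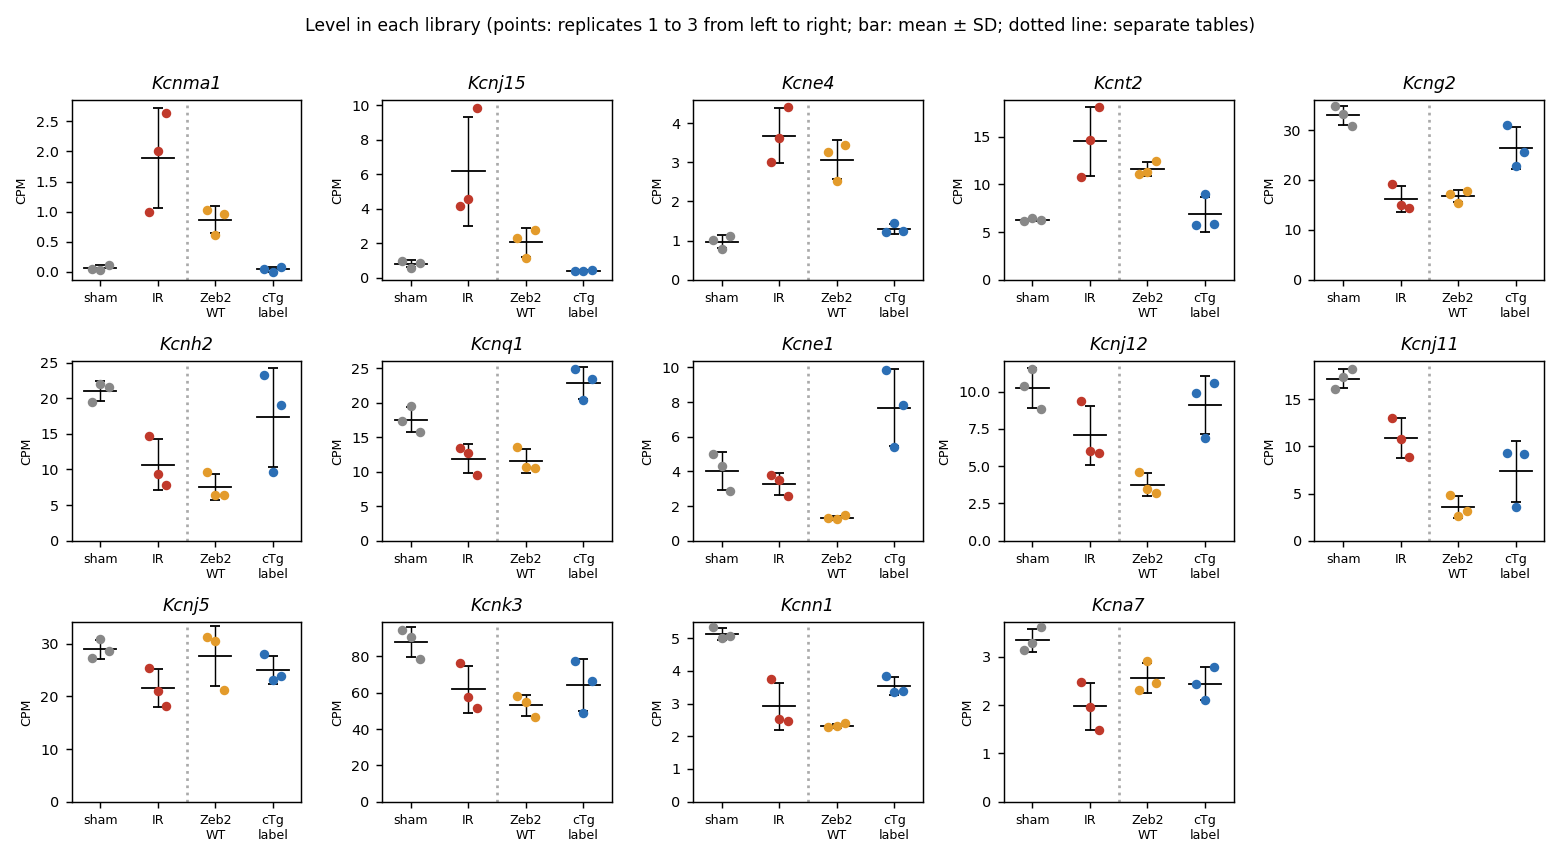
CPM of 14 of the 15 genes that passed in at least 1 comparison, 1 point per library, with the mean and SD of each group of 3 mice. A dotted line separates the tables, which were normalized separately. Kcnma1, Kcnj15, Kcne4 and Kcnt2 are high in WT IR and Zeb2 WT IR, and Kcne1 is highest in libraries labelled Zeb2 cTg IR.

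**Figure D4:**
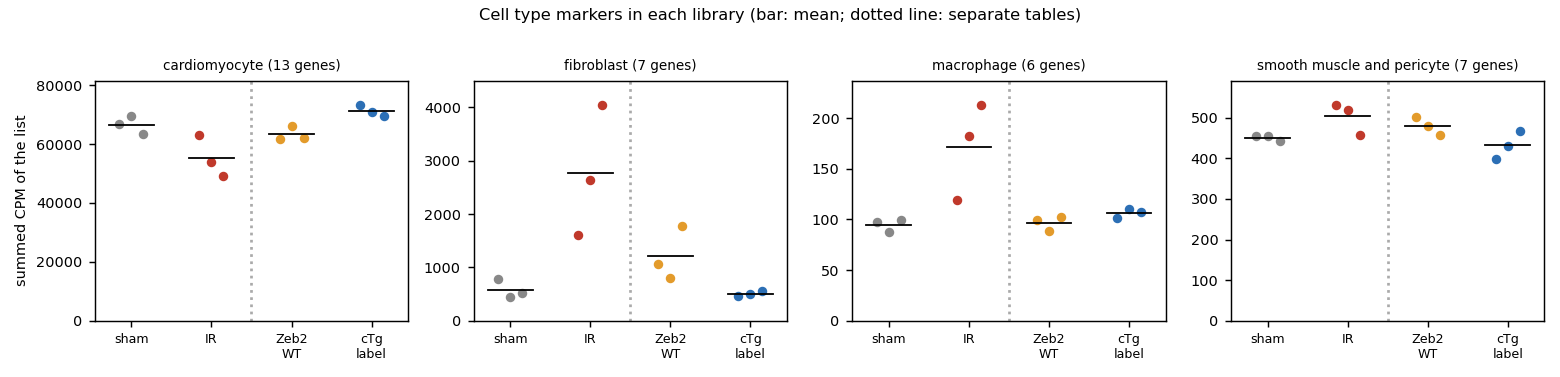
Summed CPM of 4 lists of cell type markers, 1 point per library, with the mean of each group of 3 mice as a bar. The fibroblast sum lies between 1611 and 4052 in WT IR and between 462 and 558 in libraries labelled Zeb2 cTg IR.

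Channel partners, K+ transport genes and transcription factors that act on K+ channel genes were followed alongside. Of 30 such genes 24 were tested in WT IR against WT sham, with a median log2 fold change of -0.22. At an adjusted p under 0.05, 3 fell and none rose, beside 9.74% lower and 11.0% higher over all genes. The homeobox genes Irx3, which acts on K+ channel genes across the ventricular wall and conduction system, and Nkx2-5, a core cardiac transcription factor, fell by 0.82 and 1.30 (adjusted p = 0.00739 and 0.00407 by the edgeR quasi-likelihood test). Both passed in all 6 leave-one-out fits, but not after the correction for GC content, where Nkx2-5 was at -0.17 (adjusted p = 0.396) and Irx3 at -0.37 (adjusted p = 0.111). Nkx2-5 had 14.1, 14.1 and 14.6 CPM in WT sham and 7.97, 4.76 and 4.55 CPM in WT IR. The sulphonylurea receptors that complete ATP-sensitive channels, Abcc8 and Abcc9, had log2 fold changes of -0.41 (adjusted p = 0.0501) and -0.26 (adjusted p = 0.147). Without WT IR replicate 1, 16 of the 30 genes passed.

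To ask how these genes differed with the transgene, libraries labelled Zeb2 cTg IR were compared with Zeb2 WT IR. There, 4 K+ channel genes were higher and 3 lower. Kcne1 and Kcnq1, the auxiliary and the pore subunit of IKs, rose, as did Kcnj12 of IK1 and Kcng2, by 0.66 to 2.52 on the log2 scale, and Kcnma1, Kcnj15 and Kcne4 fell, by 1.24 to 4.11. Of the 42 genes 37 were tested, so 10.8% were higher and 8.11% lower, beside 2.14% and 1.51% of all 13018 genes tested. The median log2 fold change was 0.08, beside 0.01 over all genes, and 19 of the 37 lay above 0. Groups did not overlap in 16 of the 37 genes (43.2%), beside 26.2% of all genes. Every library reached the filter's minimum in 29 of the 37 genes, whereas Kcnma1, Kcnj15, Kcna2, Kcnk13 and Kcnmb1 reached it in Zeb2 WT IR alone. Kcna6 and Kcnab2 reached it only in libraries labelled Zeb2 cTg IR, and Kcnc2 in all libraries of neither group. The study chose Kcne1, Kcng2, Kcnh2, Kcnj11, Kcnj12, Kcnn1 and Kcnq1 for display on these libraries, so their direction is not independent evidence.

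Which genes passed depended on single libraries here too. Without Zeb2 cTg IR replicate 2, in which Kcnh2, Kcnj11 and Kcnj12 were closest to Zeb2 WT IR, 9 were higher and 5 lower. Without Zeb2 cTg IR replicate 1 or replicate 3, 2 were higher and 1 lower, and without Zeb2 WT IR replicate 3, 1 was higher and 1 lower. Relative to cardiomyocyte markers, which moved the median of all genes to -0.16, 3 genes were higher and 4 lower, and the median of the K+ channel genes lay 0.08 above that of all genes with either scaling.

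Kcne1 (ENSMUSG00000039639, chromosome 16, 92345982 to 92359468, minus strand) had 1.28, 1.25 and 1.47 CPM in Zeb2 WT IR and 9.85, 5.38 and 7.83 CPM in libraries labelled Zeb2 cTg IR. All of the latter were above all of the former, and the log2 fold change was 2.52 (SE 0.25, adjusted p = 0.00191 by edgeR). It passed under each of the 15 alternatives. In WT IR, Kcne1 had 3.78, 3.49 and 2.57 CPM, against 4.99, 4.29 and 2.85 CPM in WT sham. Kcnq1 had 13.6, 10.6 and 10.5 CPM in Zeb2 WT IR and 24.9, 20.4 and 23.5 CPM in libraries labelled Zeb2 cTg IR, a log2 fold change of 0.99 (SE 0.15, adjusted p = 0.0117 by edgeR), and it passed in 5 of the 6 leave-one-out fits. Its antisense transcript Kcnq1ot1 shares 121 exon bases with it, 2.96% of its exons. Within each library, the level per length of Kcne1 was between 0.12 and 0.18 of that of Kcnq1 in Zeb2 WT IR, and between 0.34 and 0.50 in libraries labelled Zeb2 cTg IR. This ratio, looked at after the values were known, ranged from 0.23 to 0.37 in WT sham and from 0.34 to 0.36 in WT IR.

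Kcne1 is also expressed in the conduction system, where Cntn2 and Hcn4 are markers. Cntn2 rose, from 1.54, 1.30 and 1.10 CPM in Zeb2 WT IR to 6.12, 3.70 and 2.27 CPM in libraries labelled Zeb2 cTg IR (log2 fold change 1.60, adjusted p = 0.0415 by edgeR). Hcn4 had 1.91, 1.17 and 0.633 CPM against 0.922, 0.840 and 0.197 CPM (log2 fold change -0.97, adjusted p = 0.312 by edgeR). The part of conduction tissue in these values was not tested.

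Kcnj12 (ENSMUSG00000042529, chromosome 11, 61022564 to 61071131, plus strand), the second IK1 subunit, had 4.62, 3.44 and 3.20 CPM in Zeb2 WT IR and 9.93, 6.91 and 10.6 CPM in libraries labelled Zeb2 cTg IR, all higher, with a log2 fold change of 1.28 (SE 0.21, adjusted p = 0.0155 by edgeR). It passed in 3 of the 6 leave-one-out fits. Kcnj2, by far the more abundant IK1 gene per length (11.1 against 1.36 CPM per kb in Zeb2 WT IR), had 52.6, 68.8 and 59.2 CPM and 75.9, 84.8 and 58.9 CPM, and these overlapped (log2 fold change 0.28, adjusted p = 0.311). Kcnj12 thus made up between 9.01% and 14.8% of the level per length of both genes in Zeb2 WT IR and between 13.9% and 26.2% in libraries labelled Zeb2 cTg IR, ranges that overlap. Kcng2 had 17.2, 15.3 and 17.7 CPM in Zeb2 WT IR and 31.1, 22.7 and 25.6 CPM in libraries labelled Zeb2 cTg IR (log2 fold change 0.66, SE 0.15, adjusted p = 0.0423 by edgeR). Its call was lost once GC content was corrected for, where it was 0.12 (adjusted p = 0.703), and in 5 of the 6 leave-one-out fits. With a GC content of 61.5%, Kcng2 was the highest of the 42 genes, which reached down to 36.6% for Kcnt2.

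Kcnh2 and Kcnj11 varied widely among libraries labelled Zeb2 cTg IR and did not pass. Kcnh2 had 9.57, 6.43 and 6.40 CPM in Zeb2 WT IR and 23.2, 9.66 and 19.0 CPM in libraries labelled Zeb2 cTg IR, a log2 fold change of 1.21 (SE 0.30, adjusted p = 0.0574 by edgeR), and replicate 2 lay just above the highest Zeb2 WT IR library. It passed at 0.64 with GC content corrected for (adjusted p = 0.0472), and both genes passed with DESeq2 (adjusted p = 0.00120 for Kcnh2 and 0.0379 for Kcnj11). Kcnj11 had 4.84, 2.59 and 3.20 CPM against 9.26, 3.59 and 9.18 CPM, where replicate 2 lay within Zeb2 WT IR (log2 fold change 1.05, adjusted p = 0.123). Kcnj8 had 13.2, 11.0 and 13.4 CPM against 10.2, 8.21 and 9.83 CPM, lower in all 3 mice but not past the threshold (log2 fold change -0.41, adjusted p = 0.130). Of the genes of the transient outward current, Kcnip2 had a log2 fold change of 0.41 (adjusted p = 0.125) with groups that did not overlap, Kcnd2 0.41 (adjusted p = 0.261), Kcnd3 -0.17 (adjusted p = 0.484) and Kcna4 0.51 (adjusted p = 0.137). Kcnk3, Kcna5, Kcnj3 and Kcnj5 had log2 fold changes of 0.27, 0.39, 0.42 and -0.15, and that of Kcnk3 changed sign, to -0.21, with the correction for GC content. The same correction brought Kcna4, Kcnj2 and Kcnj8 past the threshold, at 0.68, 0.49 and -0.59 (adjusted p = 0.0240, 0.0229 and 0.0101). Kcnn1 was at 0.60 and Kcnn2 at -0.61, neither past the threshold (adjusted p = 0.0866 and 0.220). Kcnk2, Kcnk6, Kcnk13, Kcnmb1 and Kcnab1 had -0.13, 0.08, -0.36, -0.35 and -0.25. Other genes tested lay between -0.52 for Kcnip3 and 0.99 for Kcnab2.

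The 3 genes that fell had each risen in WT IR. Kcnma1 had 28, 15 and 29 raw counts in Zeb2 WT IR and 1, 0 and 3 in libraries labelled Zeb2 cTg IR, or 1.03, 0.607 and 0.966 CPM against 0.0419, 0 and 0.0842 CPM. The pooled ratio of Zeb2 WT IR over the others was 18.8, with an exact 95% interval from 7.04 to 70.9 for counting error only, and the fitted log2 fold change was -4.11 (SE 0.59, adjusted p = 0.0100 by edgeR). It passed under each of the 15 alternatives. Kcnj15 had 2.31, 1.13 and 2.77 CPM in Zeb2 WT IR and 0.377, 0.382 and 0.449 CPM in libraries labelled Zeb2 cTg IR, a log2 fold change of -2.35 (SE 0.38, adjusted p = 0.0142 by edgeR). Kcne4 had 3.26, 2.51 and 3.43 CPM in Zeb2 WT IR and 1.22, 1.45 and 1.24 CPM in libraries labelled Zeb2 cTg IR, with a log2 fold change of -1.24 (SE 0.22, adjusted p = 0.0200 by edgeR). Kcnj15 and Kcne4 passed in 3 and 2 of the 6 leave-one-out fits. Kcnt2 had 11.1, 11.3 and 12.5 CPM in Zeb2 WT IR and 5.78, 9.01 and 5.81 CPM in libraries labelled Zeb2 cTg IR, without overlap, and did not pass (log2 fold change -0.76, adjusted p = 0.0578). The fibroblast markers summed to 1059, 804 and 1774 CPM in Zeb2 WT IR and to 462, 505 and 558 CPM in libraries labelled Zeb2 cTg IR, with 2 of 7 lower and none higher. Replicate 3 of Zeb2 WT IR, which had the highest fibroblast sum of its group, also had the highest Kcnj15, Kcne4 and Kcnt2, whereas Kcnma1 was highest in replicate 1. The macrophage sum was between 88.8 and 103 CPM in Zeb2 WT IR and between 102 and 110.0 CPM in libraries labelled Zeb2 cTg IR. What part fibroblasts had in the fall was not tested.

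Kcnj4, Kcnq5 and Kcnc1 were too low to be tested, and their counts are given as a description, since they entered the 42 genes through the same counts: Kcnj4 reached 10 only in libraries labelled Zeb2 cTg IR, Kcnq5 and Kcnc1 mostly in Zeb2 WT IR. Kcnj4, another IK1-type subunit, had 0, 0 and 1 counts in Zeb2 WT IR and 10, 10 and 10 in libraries labelled Zeb2 cTg IR, a ratio of 28.7 with an exact 95% interval from 4.77 to 1171. Kcnq5, a relative of Kcnq1 known from neurons and smooth muscle, had 7, 26 and 13 counts in Zeb2 WT IR and 0, 2 and 4 in libraries labelled Zeb2 cTg IR, where the ratio of the former to the latter was 8.01 (interval from 3.41 to 23.0). Kcnc1, a fast delayed rectifier gene, had 16, 7 and 14 counts against 2, 2 and 6, a ratio of 3.87 (interval from 1.88 to 8.72). These intervals cover counting error only, not the spread between mice. Kcnn3, also not tested in this table, had overlapping levels.

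ZEB2 is a zinc-finger repressor that binds E-boxes of the form CACCTG, so the stretch before each start site was searched for these letters on both strands (CACCTG or its complement CAGGTG). Promoters from RefSeq (GRCm38.p6, the 250 bases before a start site) were given for 30 of the 42 genes, and 9 of the 30 had a match, in 10 of 44 promoters (22.7%). Over all 32851 promoters the share was 17.2%. Shown, 5′ to 3′, are those of Kcnj12, Kcnt2 and Kcnj15. Kcnj12 has a match and rose in libraries labelled Zeb2 cTg IR, where Kcnj15, Kcne4 and Kcnma1, which have none, fell. Kcnt2 has a match and rose in WT IR, whereas Kcnn1, with matches in both of its promoters, fell there. Of the genes without a match, Kcnj15, Kcne4 and Kcnma1 rose in WT IR, and Kcna7, Kcnh2 and Kcnj5 fell. Kcne1, Kcnq1 and Kcng2 also rose in libraries labelled Zeb2 cTg IR, but no promoter was given for them, so they could not be searched. The matches, in capitals, start 240 bases before a RefSeq start site of Kcnj12 and 201 bases before that of Kcnt2. The Kcnj12 site lies inside the gene as annotated in GENCODE, which starts at 61022564. The stretch before that GENCODE start was not searched. The windows shown hold no exon annotated in GENCODE, and a match says nothing about whether ZEB2 binds there.
Kcnj12 (chr11:61065554-61065803, plus strand): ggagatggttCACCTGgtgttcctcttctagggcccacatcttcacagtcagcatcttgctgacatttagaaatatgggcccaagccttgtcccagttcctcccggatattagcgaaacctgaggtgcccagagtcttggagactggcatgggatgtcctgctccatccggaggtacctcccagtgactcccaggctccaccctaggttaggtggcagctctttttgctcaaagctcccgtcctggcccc
Kcnt2 (chr1:140245468-140245717, plus strand): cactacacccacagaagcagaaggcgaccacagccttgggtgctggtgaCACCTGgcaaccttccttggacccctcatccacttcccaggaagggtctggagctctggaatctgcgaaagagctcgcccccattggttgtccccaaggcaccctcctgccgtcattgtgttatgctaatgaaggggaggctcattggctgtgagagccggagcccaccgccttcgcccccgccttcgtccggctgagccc
Kcnj15 (chr16:95257308-95257557, plus strand): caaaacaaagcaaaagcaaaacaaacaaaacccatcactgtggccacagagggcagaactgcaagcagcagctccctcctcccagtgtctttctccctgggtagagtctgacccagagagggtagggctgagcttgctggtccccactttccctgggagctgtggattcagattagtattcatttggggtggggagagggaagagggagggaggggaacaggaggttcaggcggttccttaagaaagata

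Of the partner and transport genes, 24 were again tested, 1 was higher and 1 lower in libraries labelled Zeb2 cTg IR, beside 2.14% and 1.51% of all genes, with a median log2 fold change of 0.22. Nkx2-5 had 1.58, 0.728 and 1.13 CPM in Zeb2 WT IR and 5.57, 2.10 and 5.56 CPM in libraries labelled Zeb2 cTg IR (log2 fold change 1.94, SE 0.40, adjusted p = 0.0346 by edgeR), and it had the lowest value of its group in replicate 2, as Kcnh2 and Kcnj11 did. Abcc9, the receptor subunit of ATP-sensitive channels with Kcnj8 and with ventricular Kcnj11, had 313, 359 and 254 CPM in Zeb2 WT IR and 186, 177 and 184 CPM in libraries labelled Zeb2 cTg IR (log2 fold change -0.76, adjusted p = 0.0244 by edgeR). Each passed in 2 of the 6 leave-one-out fits, and the number of these 30 genes that passed went from 0, without Zeb2 WT IR replicate 2 or Zeb2 cTg IR replicate 1 or 3, to 12, without Zeb2 cTg IR replicate 2.

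Across the comparisons, which share no mice, 15 of the 42 genes passed at least once and 5 passed in both. All 5 went in opposite directions, and the same counts over all genes are not given here. Kcng2 and Kcnq1 fell in WT IR and were higher in libraries labelled Zeb2 cTg IR, and Kcnma1, Kcnj15 and Kcne4 were higher and then lower. Of the 37 genes tested in both, 17 had a lower fitted level in WT IR and a higher one in libraries labelled Zeb2 cTg IR, 11 the reverse, 2 were higher and 7 lower in both, so that 75.7% were opposite, beside 63.6% of the 12791 genes tested in both. The 37 genes share the libraries and are not independent. Over them, the Pearson correlation of the log2 fold changes was -0.86 and the Spearman correlation -0.71, beside -0.38 and -0.37 over all genes. The 37 include Kcnma1 (5.04 and -4.11) and Kcnj15 (2.93 and -2.35), among the largest changes. Kcnma1 reached the filter's minimum only in WT IR and Zeb2 WT IR, and Kcnj15 in the second table only in Zeb2 WT IR. No correlation without these genes is given. The fold changes also went with GC content in opposite ways, with a Spearman correlation of -0.48 over the K+ channel genes in WT IR (-0.29 over all genes) and 0.34 in libraries labelled Zeb2 cTg IR (0.55 over all genes). After a correction for GC content in both comparisons, 73.0% of the 37 genes were opposite, beside 59.7% of all genes, with a Spearman correlation of -0.61. The part of GC content in the opposite directions was otherwise not tested.

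**Figure D5:**
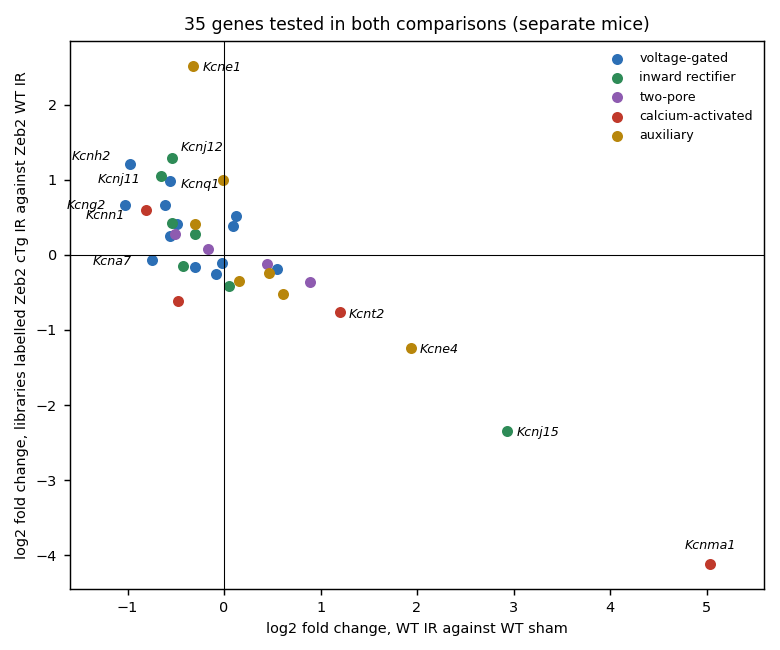
Log2 fold change in WT IR against WT sham (x axis) and in libraries labelled Zeb2 cTg IR against Zeb2 WT IR (y axis) for 35 of the 37 genes tested in both, coloured by current, with names for 12 of the 14 plotted that passed at least once. Over all 37 the Pearson correlation is -0.86 and the Spearman correlation -0.71, beside -0.38 and -0.37 over all genes. The 37 include Kcnma1, which reached the filter's minimum only in WT IR and Zeb2 WT IR. They also include Kcnj15, which on the y axis reached it only in Zeb2 WT IR. Kcnma1, Kcnj15, Kcne4 and Kcnt2 lie alone at the lower right.

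Within a library, ratios between genes do not depend on its scaling, and those below were chosen after the values were seen and carry no test. The share of Kcnj8 in the summed level per length of both ATP-sensitive pore genes ranged from 55.0% to 57.3% in sham hearts and from 65.7% to 70.4% in WT IR. It was between 79.7% and 86.0% in Zeb2 WT IR and between 60.7% and 76.7% in libraries labelled Zeb2 cTg IR, so that neither pair of groups overlapped. In contrast, the level per length of Kcnip2 relative to the sum of Kcnd2 and Kcnd3 was 2.91 ± 0.89 (SD, n = 3) in WT sham, 3.11 ± 0.12 in WT IR, 2.76 ± 0.52 in Zeb2 WT IR and 3.09 ± 0.79 in libraries labelled Zeb2 cTg IR, and these overlapped.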

How the data were processed

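RNA-seq of 12 mouse hearts was used, in 2 tables of raw gene counts that the authors deposited unnormalized, 1 column per mouse. Per the labels and methods the reads were aligned to mm10 with STAR 2.4.2a and counted with HTSeq 0.6.1, and the setting for strand is not stated. Each table was normalized and tested on its own with edgeR 4.0.16 (R 4.3.3) by TMM scaling, filterByExpr (minimum count 10, minimum total 15) and the quasi-likelihood test with Benjamini-Hochberg adjustment over all genes tested, at an adjusted p under 0.05. Libraries are labelled as replicate hearts, and p-values measure only the spread between these samples. The scripts were tested on simulated data. Alternatives were DESeq2 size factors in edgeR, DESeq2 1.42.0 itself, size factors from cardiomyocyte markers, removal of mitochondrial genes, unfiltered genes, a block for the replicate number, loess correction on the GC content of the longest transcript (known for 94.9% of genes) with and without that block, all 12 libraries in 1 fit, and leaving out each library. Ratios of pooled raw counts carry exact binomial intervals.

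The members, lists and tests were chosen with earlier results of these data known. Genes named with values were those past the threshold in either comparison, genes of known ventricular currents, the 3 highest per length of each class, and the 3 with the largest log2 fold change in each direction. Positions are from GENCODE M21 (GRCm38) and promoters from RefSeq (GRCm38.p6). Levels per length divide CPM by the exon bases of all transcripts of a gene, so use of other exons would move them. A few genes are not reported here, and they stay in counts, medians and correlations.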

Additional observations from a re-analysis of the deposited data

How the results depend on the processing

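Called K+ channel genes kept their direction under every alternative run. Over the 15 alternatives, the call was lost in 38 of 195 values in WT IR and in 19 of 105 in libraries labelled Zeb2 cTg IR, and genes not called gained one in 19 and 29 values. The number of K+ channel genes called in WT IR (13) was 8 with size factors from cardiomyocyte markers and between 5 and 21 without 1 library. In libraries labelled Zeb2 cTg IR (7) it was 14 without a filter, 11 with the replicate block, 11 with DESeq2, 14 with all 12 libraries in 1 fit, and between 2 and 14 without 1 library. Medians moved to -0.021 and -0.085 with cardiomyocyte markers, and between -0.35 and -0.059 and between -0.07 and 0.17 without 1 library. Partner and transport genes called in WT IR (3) were 6 with cardiomyocyte markers and without a filter, 5 with the replicate block, with that block and GC correction, and with DESeq2, and between 2 and 16 without 1 library. In libraries labelled Zeb2 cTg IR (2) they were 5 with cardiomyocyte markers, 11 without a filter, 12 with the replicate block, 7 with GC correction, 5 with both, 11 with DESeq2, 12 with all libraries in 1 fit, and between 0 and 12 without 1 library. The log2 difference of Zeb2 became 0.15 with GC correction, with or without the block, and lay between -0.13 and 0.019 without 1 library.

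Of genes not called, some changed sign. Kcna4 in WT IR was -0.016 with GC correction and -0.0027 with the block and GC correction. In libraries labelled Zeb2 cTg IR Kcnk3 was -0.21 and -0.19 under the same alternatives. With cardiomyocyte markers Kcnk6 was 0.10 in WT IR and -0.085 in libraries labelled Zeb2 cTg IR, where it was -0.015 with the block and GC correction. Without 1 library, values in WT IR lay between -0.51 and 0.33 for Kcna5, -0.011 and 0.11 for Kcnj8, -0.037 and 0.51 for Kcnmb1, and -0.090 and 0.51 for Kcnn3. In libraries labelled Zeb2 cTg IR they lay between -0.18 and 0.032 for Kcna7, -0.31 and 0.036 for Kcnk2, and -0.059 and 0.27 for Kcnk6. The cause was not tested. Same-numbered libraries had correlations of their deviations between -0.03 and 0.01 in the WT table and between -0.04 and 0.26 in the other. The 0.26 was that of replicate 2, where the Zeb2 WT IR library correlated best with its own number. Whether the numbers pair the mice cannot be settled from these values, and the block served as an alternative only. At 1 CPM a library held 17.2 to 37.8 counts, which limits Kcnma1, Kcnj4, Kcnq5 and Kcnc1 most.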
